A study of Rattus norvegicus with 56 samples.

Results

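The muscle microRNAs miR-1, miR-133 and miR-206 are described here in rat fetal myocardium, amniotic fluid and maternal serum. The members were chosen by name, as the rows for miR-1-3p, miR-1-5p, miR-1b, miR-133a-3p, miR-133a-5p, miR-133b-3p and miR-206-3p, and they were 7 of the 682 microRNAs listed in the count tables. All 7 were listed in myocardium, among 661 microRNAs, and 6 were listed in amniotic fluid (of 523) and in maternal serum (of 518), miR-1-5p being listed only in myocardium. Pregnant Sprague-Dawley rats received dimethadione (DMO), a teratogen that produces heart defects, or distilled water, and samples were taken on embryonic day 19. The VSD group came from DMO-exposed fetuses with a ventricular septal defect, a hole in the wall between the ventricles. The non-VSD group came from DMO-exposed fetuses whose septum was intact, and the NC group from fetuses of water-treated dams. Each group held 7 samples per tissue, and maternal serum was taken for NC and VSD only, which gave 56 samples in all. The labels do not give the dam or litter of a fetus, so the p-values measure only the spread between these samples. A DMO-exposed fetus with or without a defect is a chemically induced model, and exposure is shared by both DMO groups.

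miR-1 and miR-133a are transcribed together from shared precursors in heart and skeletal muscle, and miR-206 and miR-133b from a further shared precursor used mainly in skeletal muscle. Serum response factor, MEF2 and the myogenic factors drive these loci. miR-1 and miR-206 promote muscle differentiation, whereas miR-133 restrains serum response factor and is tied to myoblast proliferation. A microRNA selects its targets mainly through its seed, bases 2 to 8 from the 5′ end, so members with the same seed can bind the same sites.

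The mature sequences show why the members have to be read in groups, with the seed in capitals. All 7 names matched an entry in RefSeq (build GRCr8), from which these sequences and positions were taken.
miR-1-3p: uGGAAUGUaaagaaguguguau
miR-1b: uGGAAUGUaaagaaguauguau
miR-206-3p: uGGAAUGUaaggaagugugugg
miR-133a-3p: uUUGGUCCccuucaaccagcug
miR-133b-3p: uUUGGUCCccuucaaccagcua
miR-1-5p: gCACAUACuucuuuauguaccc
miR-133a-5p: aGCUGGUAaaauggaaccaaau
The first 3 share the seed GGAAUGU and the next 2 share UUGGUCC, while the 2 opposite arms carry seeds of their own. Counting from 1 at the 5′ end, miR-1b differed from miR-1-3p by G17A alone. miR-206-3p differed from miR-1-3p by A11G, A21G and U22G. miR-133b-3p differed from miR-133a-3p only by G22A at the last base, so a read that lacks this base could belong to either. The counting rule for such reads was not stated, and the split between miR-133a-3p and miR-133b-3p is therefore uncertain. All 7 matures are 22 bases long. Whether the libraries captured these different sequences equally was not tested. Orders of members and ratios between them are therefore orders and ratios of counts.

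The positions in GRCr8 follow the known gene pairs. On the minus strand, Mir1 gave miR-1-3p at chr18:2160339-2160360 and miR-1-5p at chr18:2160380-2160401. Mir133a1 gave miR-133a-3p at chr18:2157886-2157907 and miR-133a-5p at chr18:2157923-2157944, with 2368 bases between the 2 hairpins. On the plus strand, Mir206 (miR-206-3p, chr9:30590747-30590768) and Mir133b (miR-133b-3p, chr9:30594629-30594650) lay 3801 bases apart. Mir1b, also on the plus strand, gave miR-1b at chr3:187864736-187864757.

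Libraries held between 1694811 and 9371130 microRNA counts in myocardium, 78188 to 331787 in amniotic fluid and 147609 to 581350 in maternal serum. Levels are given as CPM, counts scaled to a library of 1e6 after normalization by trimmed mean of M values. Where a member had 0 counts, its level could still be as high as 0.320 to 1.77 CPM in myocardium, 9.04 to 38.4 CPM in amniotic fluid and 5.16 to 20.3 CPM in serum, which correspond to 3 counts and cover counting error only. Amniotic fluid was sequenced from another library kit than the other tissues, so levels are compared within a tissue and not across tissues. The myocardium label was checked against the cardiac muscle microRNAs miR-208a-3p, miR-208b-3p and miR-499-5p, which were detected at a summed share of 0.0458% to 0.694% of counts in myocardium. The same sum reached at most 0.0413% in amniotic fluid and 0.00498% in serum. As an exception, this check sets tissues and kits side by side, and the lowest myocardium library lay close to the highest of amniotic fluid.

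The tissues differed in which member led, as the plot of levels by group shows. In NC myocardium miR-1b had a median of 62612 CPM and ranked 3 among the 661 microRNAs. It was followed by miR-1-3p at 26496 CPM (rank 11) and miR-133a-3p at 10006 CPM (rank 19). The skeletal muscle pair was far lower, with miR-133b-3p at 289.9 CPM (rank 134) and miR-206-3p at 50.5 CPM (rank 241). The 2 opposite arms were miR-133a-5p at 157 CPM (rank 161) and miR-1-5p at 0.162 CPM (rank 562). Ranges of neighbours in this order overlapped between NC samples, except that miR-133a-3p lay wholly above miR-133b-3p and miR-206-3p wholly above miR-1-5p.

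In NC amniotic fluid the order was different. miR-206-3p led with a median of 3595 CPM (rank 47 of 523), above miR-1b at 285 CPM (rank 156) and miR-1-3p at 43.3 CPM (rank 262), with overlapping ranges between neighbours. The 3 miR-133 forms had a median of 0 CPM. In NC serum miR-133a-3p led at 6751 CPM (rank 25 of 518), and its range lay above that of miR-1-3p at 1125 CPM (rank 55). miR-206-3p at 754 CPM (rank 70), miR-1b at 644 CPM (rank 77) and miR-133b-3p at 129 CPM (rank 137) followed with overlapping ranges, and miR-133a-5p at 3.36 CPM lay below them all.

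**Figure D1:**
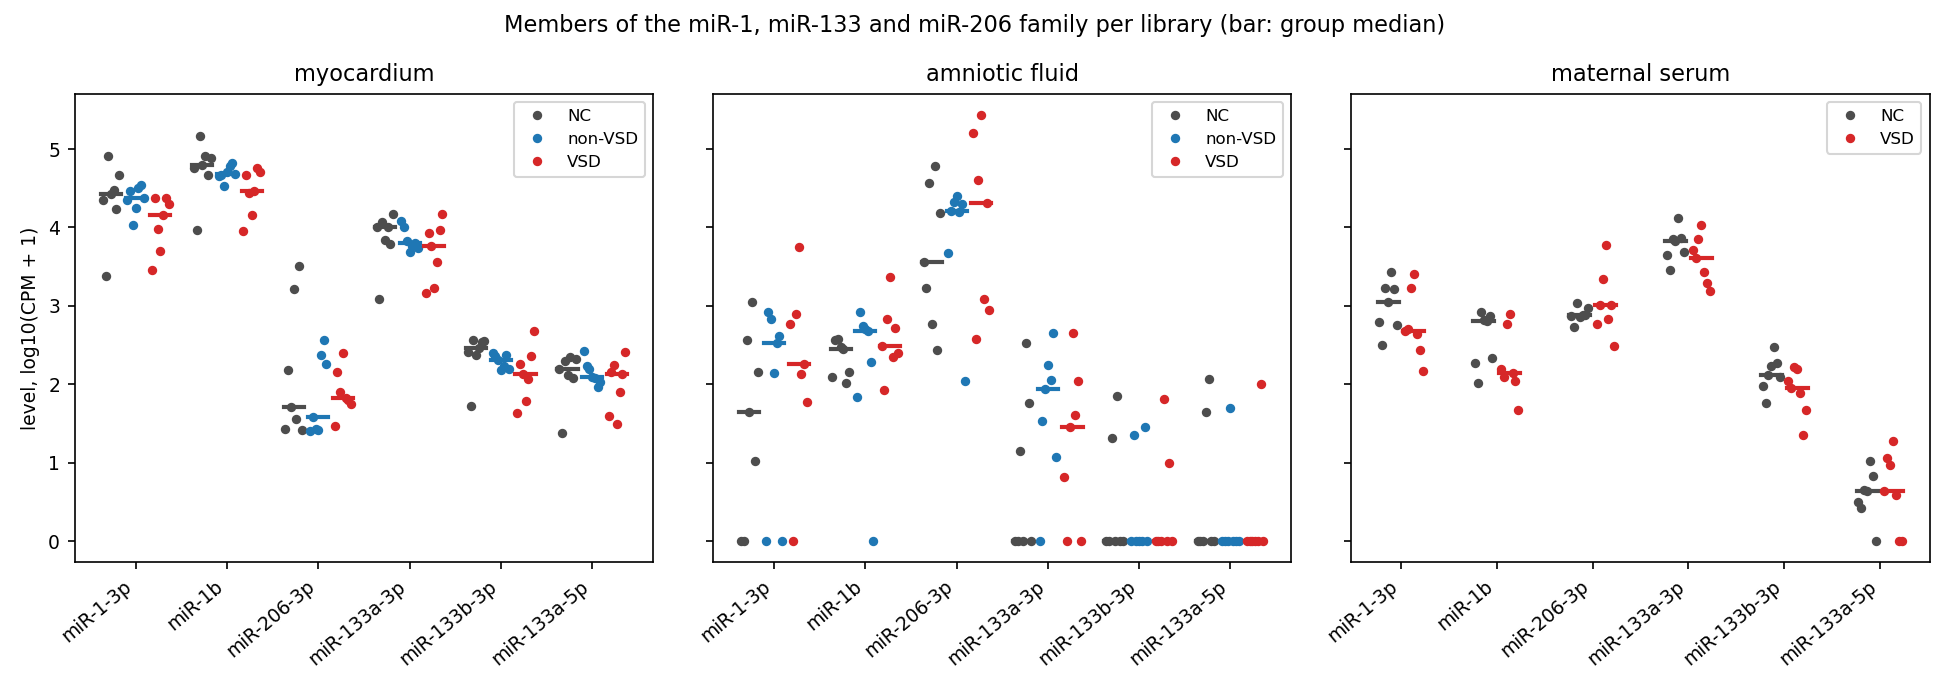
Level of 6 members in each sample, as log10(CPM + 1), by group in myocardium, amniotic fluid and maternal serum. Each point is a sample and each bar a group median; miR-1b and miR-1-3p lead in myocardium, miR-206-3p in amniotic fluid and miR-133a-3p in serum, and the groups overlap for every member.

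The next question was whether members differed in the myocardium of fetuses with a defect. A member was called where its adjusted p was under 0.05 in edgeR's quasi-likelihood test over all microRNAs, and as a DE-microRNA, the threshold of the study, where the unadjusted p was under 0.05 and the fold change at least 2 in either direction. Against NC, 0 of the 6 members that passed the filter on low counts had an adjusted p under 0.05 in VSD myocardium, where 0.426% of the 469 microRNAs tested did. DESeq2 called 1 member, beside 46 of all 469 microRNAs, and limma 0, beside 2 of 469. At the DE-microRNA threshold 2 of 6 members, miR-1b and miR-206-3p, were lower, against 6.82% of all microRNAs tested in either direction. All 6 fitted changes lay below 0, with a median of -0.83 (log2) beside -0.05 over all microRNAs tested.

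miR-1-3p ranged in NC myocardium from 2422 to 80544 CPM around a median of 26496 CPM. In VSD it ranged from 2890 to 23934 CPM around 14399 CPM, and in non-VSD from 10647 to 34361 CPM around 23581 CPM. Every VSD sample lay below the NC median, but the groups overlapped. NC replicate 2 was the lowest of all 21 samples, and NC replicates 1 (22443 CPM) and 6 (17430 CPM) also lay within the VSD range. The fitted change of VSD against NC was -1.18 ± 0.58 (log2, SE, n = 7 per group, adjusted p = 0.266 by edgeR). The exact two-sided permutation test on log2 CPM gave p = 0.2063. It met the DE-microRNA threshold when NC replicate 2 or 6 or VSD replicate 2 or 6 was left out (-1.35 to -1.45).

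miR-1b carries the same seed and ranged from 9230 to 145886 CPM in NC (median 62612), 8892 to 57348 CPM in VSD (median 29492) and 33603 to 66178 CPM in non-VSD (median 47538). All 7 VSD samples again lay below the NC median, with NC replicates 1, 2 and 6 inside the VSD range. The fitted change was -1.03 ± 0.48 (log2, SE, unadjusted p = 0.0474, adjusted p = 0.257 by edgeR), and the exact permutation p was 0.1387. miR-1b no longer met the DE-microRNA threshold when NC replicate 3, 5 or 7 or VSD replicate 1, 3, 4 or 5 was left out, with changes of -0.80 to -1.08. Without NC replicate 2 the changes were -1.28 for miR-1b and -1.45 for miR-1-3p, with adjusted p of 0.0406 and 0.0495 by edgeR. In that fit 77 of the 474 microRNAs tested had an adjusted p under 0.05, beside 2 of 469 with all samples. Over all 20 alternatives the adjusted p ranged from 0.0406 to 0.401 for miR-1b and from 0.0495 to 0.464 for miR-1-3p.

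miR-133a-3p, the cistron partner of miR-1, had medians of 10006 CPM in NC, 6344 CPM in non-VSD and 5857 CPM in VSD. Its NC samples spanned 1233 to 14957 CPM and its VSD samples 1453 to 14752 CPM, so the groups covered nearly the same range. The fitted change in VSD was -0.44 ± 0.53 (log2, SE, adjusted p = 0.664 by edgeR). Its opposite arm, miR-133a-5p, changed by -0.30 ± 0.49 with an adjusted p of 0.746. miR-133b-3p ranged from 52.1 to 363 CPM in NC and from 42.2 to 473 CPM in VSD, with a change of -0.62 ± 0.49 and an adjusted p of 0.476. Without VSD replicate 7, which held 44.2% of the VSD counts, its change was -1.09 and met the DE-microRNA threshold (adjusted p = 0.167 by edgeR, 0.167 to 0.746 over 20 alternatives). miR-1-5p, the opposite arm of miR-1-3p, was near the limit of detection with 6, 21 and 19 counts in all over NC, non-VSD and VSD, and it did not pass the filter.

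miR-206-3p, best known from skeletal muscle, showed a different pattern, in which single libraries set the mean. Its NC counts were 161, 1747, 168, 5297, 129, 23420 and 149 in replicates 1 to 7, and replicate 6 held 75.4% of them. The medians were 50.5 CPM in NC, 37.1 CPM in non-VSD and 66.6 CPM in VSD, while the highest samples reached 3249, 369.7 and 249.8 CPM. Thus the NC median was exceeded in 6 of 7 VSD libraries although the fitted change, which follows the mean, was -2.91 ± 1.09 (log2, SE, unadjusted p = 0.0172, adjusted p = 0.149 by edgeR). Without NC replicate 6 it was -1.78 and no longer at an unadjusted p under 0.05, and limma on log2(CPM + 1) gave -0.82 and the replicate block -0.45. DESeq2 gave -2.95 with an adjusted p of 0.0206, in a fit that called 46 of 469 microRNAs. Over 20 alternatives the adjusted p of miR-206-3p ranged from 0.0206 to 0.755. The exact permutation p was 0.4948.

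In non-VSD myocardium 0 of 6 members had an adjusted p under 0.05 by edgeR against NC, where 0.219% of the 456 microRNAs tested did, and miR-206-3p alone met the DE-microRNA threshold, against 4.17% of all tested. Its change was -2.55 ± 1.18 (log2, SE, unadjusted p = 0.0457, adjusted p = 0.264 by edgeR), and -1.38 without NC replicate 6. It lost the threshold also without NC replicate 4 or non-VSD replicate 1, 2, 3, 4 or 7, with changes of -2.19 to -2.67. The changes of miR-1-3p, miR-1b and miR-133a-3p were -0.38, -0.42 and -0.20, and miR-133b-3p lay below the NC median in 7 of 7 non-VSD samples with a change of -0.40. The same 7 NC samples serve both comparisons, so these are not independent of those for VSD.

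In the direct comparison of VSD with non-VSD myocardium, 0 of 6 members met either threshold by edgeR, beside 0% of the 483 microRNAs tested at an adjusted p under 0.05 and 5.18% at the DE-microRNA threshold. All 6 fitted changes lay below 0, with a median of -0.33 beside 0.02 over all microRNAs. For miR-206-3p, fitted at -0.39, the mean log2 CPM was higher in VSD by 0.14, and 6 VSD samples lay above the non-VSD median and 1 below. miR-1-3p differed by -0.78 ± 0.51 (log2, SE, adjusted p = 0.483 by edgeR) and miR-1b by -0.58. The exact permutation p was 0.0594 for miR-1-3p and 0.0606 for miR-1b. Over the 45 member and comparison pairs tested this way, the smallest adjusted p was 0.835. Over the 33 pairs of member and comparison fitted in all tissues, edgeR gave 5 with an unadjusted p under 0.05 and 0 adjusted, DESeq2 7 and 1, and limma 0 and 0. The 1 by DESeq2 was in VSD against NC myocardium, where DESeq2 called 46 of all 469 microRNAs.

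**Figure D2:**
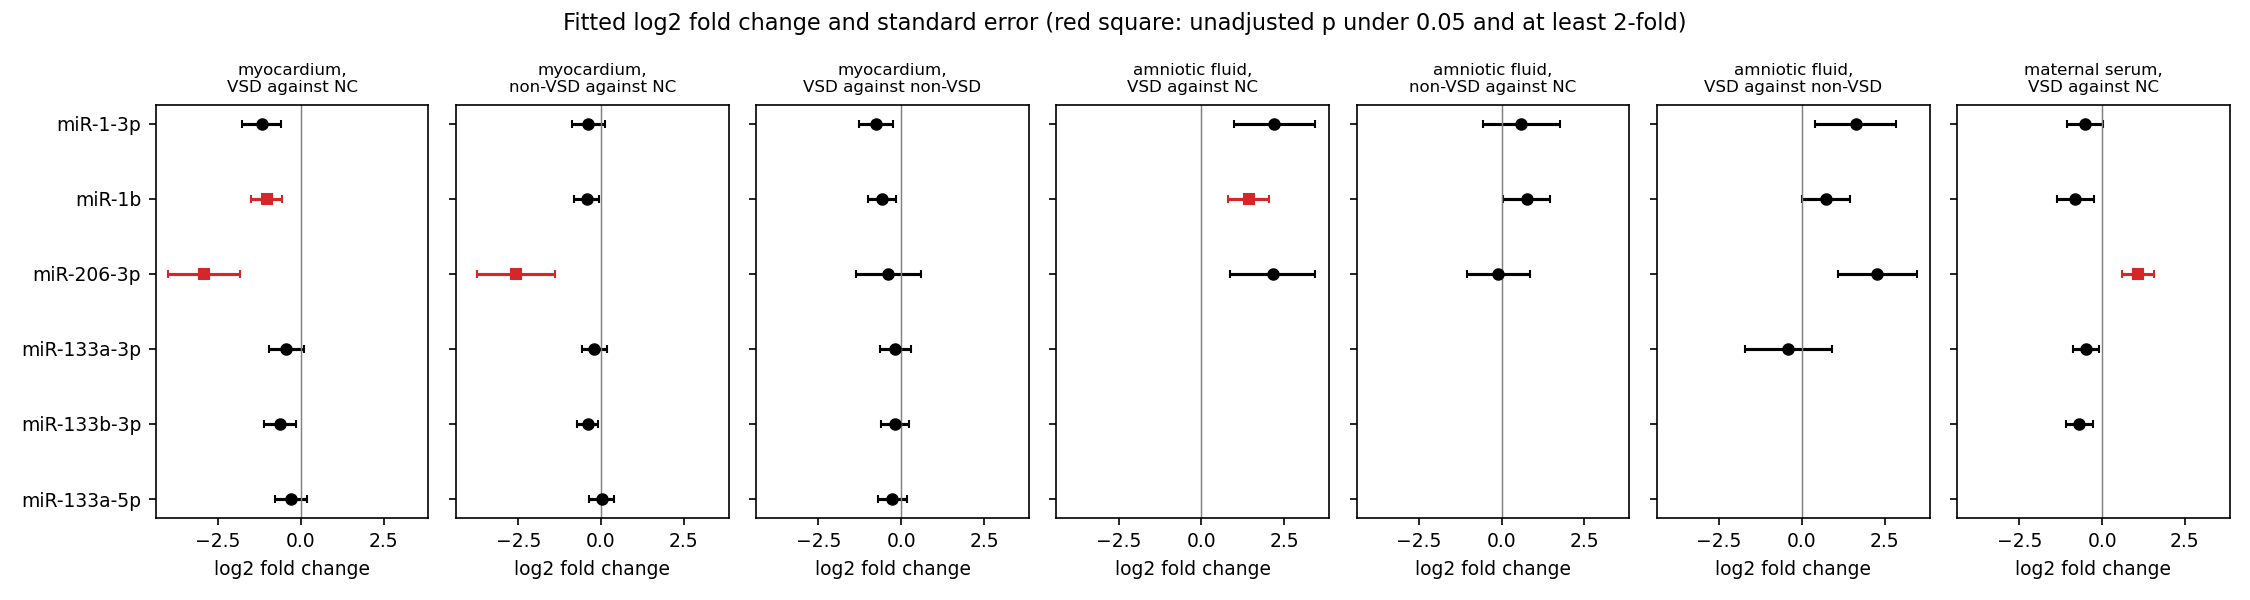
Fitted log2 fold change of each member with its SE in the 7 comparisons, n = 7 per group. Red squares mark an unadjusted p under 0.05 with a fold change of at least 2, which holds for miR-1b and miR-206-3p in myocardium, miR-1b in amniotic fluid and miR-206-3p in serum.

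A few myocardium libraries stood apart in the members' summed level, and they did so in the NC group as well as in VSD. The 7 members together took 1.61% of counts in NC replicate 2, 1.85% in VSD replicate 1 and 2.77% in VSD replicate 4, and between 4.84% and 15.1% in the other 18. These libraries also had the highest summed epithelial microRNAs (miR-200 family, miR-141-3p, miR-429, miR-203a-3p, miR-205, miR-375-3p, miR-183-5p and miR-96-5p), at 1.97%, 2.39% and 1.84%. Their cardiac muscle sums were 0.0458%, 0.144% and 0.0672%.

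All 10 epithelial microRNAs were listed, and their summed share ranged from 0.0376% to 1.97% in NC, 0.0369% to 0.839% in non-VSD and 0.225% to 2.39% in VSD, with medians of 0.126%, 0.212% and 0.411%. Of the 10, all had fitted changes above 0 in VSD against NC (median 1.20) and 1 met the DE-microRNA threshold, which 6.82% of all microRNAs tested met. The 5 red blood cell microRNAs (miR-451, miR-144 and miR-486 forms) all lay below 0 against NC in VSD, with a median of -2.36, and 5 met the threshold. All 5 lay below 0 in non-VSD as well (4 at the threshold, beside 4.17% of all tested). Beyond the correlations with these sums, the part of these cells in the differences of the members was not tested, and in bulk samples fewer muscle cells and less RNA per cell cannot be told apart.

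Across the 21 myocardium libraries, with group means removed, miR-1-3p followed these markers. Its Pearson r was -0.74 with the epithelial sum (Spearman rho -0.67, adjusted permutation p 0.0189 and 0.0529) and -0.595 (r) without the 2 libraries farthest from the median. With the cardiac muscle sum r was 0.80 and rho 0.55 (adjusted permutation p 0.0285 and 0.0943), and r was 0.581 without the 2 farthest libraries. With the red blood cell sum they were 0.70 and 0.57 (0.0285 and 0.0594), and r was 0.396 without those libraries. The white blood cell sum gave 0.59 and 0.54 (0.0375 and 0.0729) and the smooth muscle and fibroblast sum 0.63 and 0.65 (0.0401 and 0.0529), with r of 0.446 and 0.546 without the 2 farthest. With the library total r was -0.24 and rho -0.31. By rho, miR-1-3p had no adjusted p under 0.05 with any of these sums. miR-206-3p had none by r or rho, and its rho with the cardiac muscle sum was -0.47 (adjusted permutation p 0.1085).

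**Figure D3:**
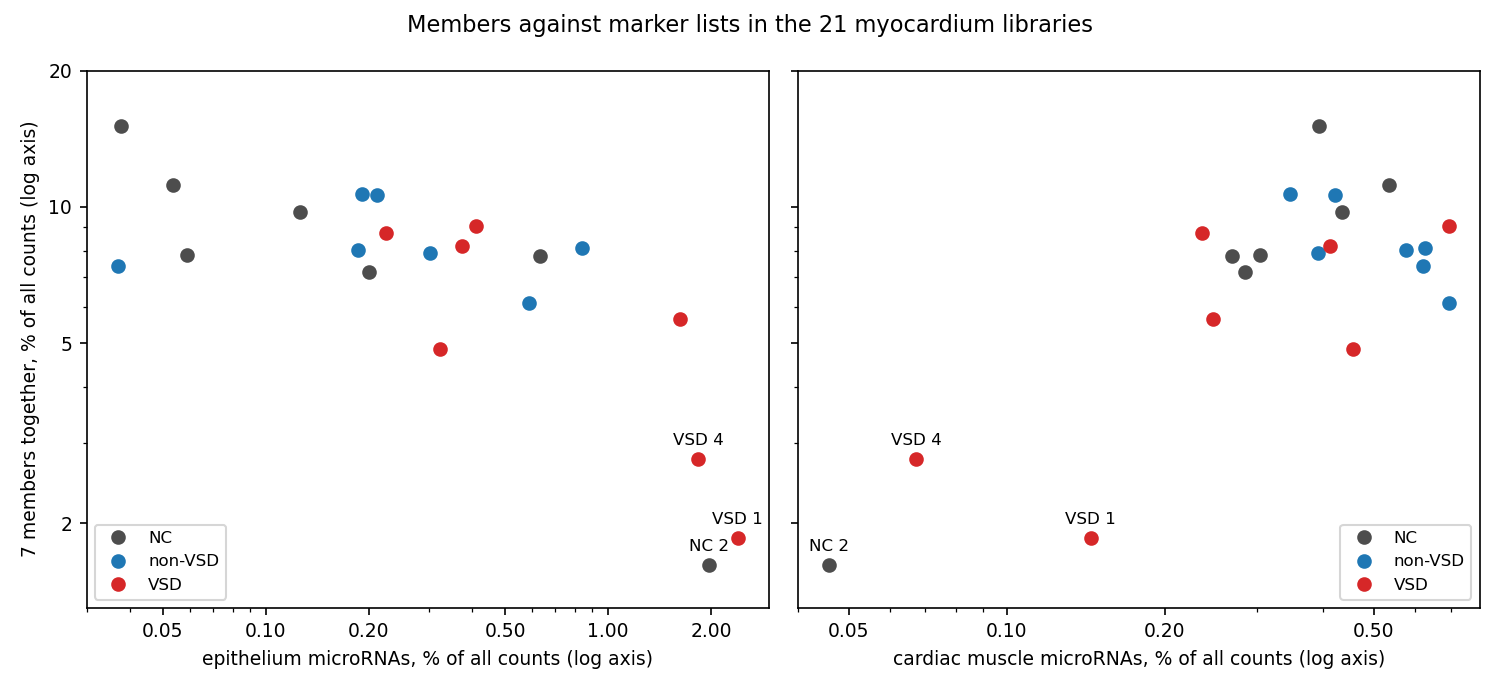
Summed share of counts of the 7 members against that of the epithelial and the cardiac muscle microRNAs in the 21 myocardium libraries, in percent on log axes. NC replicate 2, VSD replicate 1 and VSD replicate 4 lie together at 1.61% to 2.77% for the members and at 1.84% to 2.39% for the epithelial sum.

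The other muscle microRNAs served as a reference from the same tissue. Of the 9 looked up, 8 were listed in myocardium and 6 passed the filter, and 0 met the DE-microRNA threshold in any comparison by edgeR. Depending on the comparison, 3.3% to 12.4% of all microRNAs tested met it. In VSD against NC 4 of 6 lay above 0 with a median of 0.14, whereas all 6 members tested lay below it. Of the 3 cardiac muscle microRNAs miR-208a-3p, miR-208b-3p and miR-499-5p, however, 2 lay below 0, with a median of -0.33. The rest of those above 0 were the scarce arms miR-208a-5p, miR-208b-5p and miR-499-3p, with NC medians of 5.41, 7.83 and 2.10 CPM. miR-499-5p, encoded within a myosin heavy chain gene, changed by -0.51 ± 0.55 (log2, SE, adjusted p = 0.616 by edgeR), miR-208b-3p by -0.33 and miR-208a-3p by 0.24. In non-VSD against NC all 6 lay above 0 with a median of 0.41. In VSD against non-VSD 5 of 6 lay below 0 with a median of -0.37, close to the median of -0.33 of the members, so in that comparison both lists had the same sign.

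Amniotic fluid was examined next, since it can be sampled before birth. The members took from 0.0415% to 5.78% of counts in NC (median 0.395%), 0.0117% to 3.33% in non-VSD (median 1.80%) and 0.0467% to 23.2% in VSD (median 1.95%). Most of the counts came from miR-206-3p, which alone reached 22.5% of counts in VSD replicate 4. The groups overlapped widely.

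miR-206-3p had NC counts of 380, 146, 5544, 81, 13904, 57 and 1271. Its non-VSD counts were 822, 5389, 2720, 5669, 2546, 1445 and 10. In VSD they were 29239, 31, 8650, 54774, 158, 2300 and 121, so VSD held both the highest sample and samples at the level of the lowest NC libraries. The CPM medians were 3595 in NC, 16427 in non-VSD and 20694 in VSD. The fitted change in VSD against NC was 2.15 ± 1.28 (log2, SE, adjusted p = 0.479 by edgeR). Leaving out VSD replicate 4 gave 1.19, and leaving out NC replicate 5 gave 2.94, which met the DE-microRNA threshold. Against NC, non-VSD differed by -0.10 ± 0.95 (adjusted p = 0.964 by edgeR), although 6 of its 7 samples lay above the NC median, and VSD against non-VSD by 2.28 ± 1.20 (unadjusted p = 0.0688, adjusted p = 0.587 by edgeR). The latter met the threshold by DESeq2 (2.28) and without VSD replicate 2, 5 or 7 (2.49 to 2.498).

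miR-1b had lower counts, between 12 and 66 in NC, 0 and 275 in non-VSD and 7 and 463 in VSD. Its medians were 285, 475 and 305 CPM, and VSD replicate 4 held 58.5% of the VSD counts. The fitted change in VSD against NC was 1.43 ± 0.61 (log2, SE, unadjusted p = 0.0318, adjusted p = 0.269 by edgeR), and 0.53 without VSD replicate 4. It also lost the threshold without NC replicate 1, 6 or 7 (1.26 to 1.36). It was the 1 of the 3 members tested that met the DE-microRNA threshold, against 6.94% of the 245 microRNAs tested, and 0 of the 3 had an adjusted p under 0.05 by edgeR, beside 0% of all tested.

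miR-1-3p was at 0 counts in 2 NC, 2 non-VSD and 1 VSD samples, and its highest counts were 256, 276 and 1133. The groups overlapped at medians of 43.3, 333 and 179.9 CPM. It changed by 2.20 ± 1.23 (log2, SE, adjusted p = 0.424 by edgeR) in VSD against NC, by 0.33 when VSD replicate 4 was left out and by 3.54, at the DE-microRNA threshold, when NC replicate 5 was. VSD replicate 4 also had the highest share of the liver microRNA miR-122-5p, 3.35% of its counts beside at most 0.930% in the other VSD samples. Across the 21 amniotic fluid libraries, with group means removed, miR-1-3p had r = 0.62 and rho = 0.61 with the liver sum (adjusted permutation p 0.0314 and 0.0529), and r was 0.486 without the 2 farthest libraries. For miR-206-3p they were 0.36 and 0.32 (adjusted permutation p 0.307 and 0.289). With the smooth muscle and fibroblast sum miR-1-3p had r = 0.62 and rho = 0.59 (adjusted permutation p 0.0314 and 0.0639).

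The miR-133 forms were scarce in amniotic fluid, and their absence in single libraries lies within the detection limit given above. miR-133a-3p had 92, 114 and 115 counts in all over NC, non-VSD and VSD, and 0 counts in 4, 1 and 2 samples. miR-133b-3p had 19, 9 and 14 counts in all, and miR-133a-5p 33, 11 and 11. In non-VSD against NC 0 of 3 members met either threshold by edgeR, beside 4.96% of the 242 microRNAs tested at an adjusted p under 0.05 and 12.4% at the DE-microRNA threshold. In VSD against non-VSD, 0 of the 4 tested met either, beside 0% and 3.3% of 273 microRNAs, and miR-133a-3p, tested only here, differed by -0.41.

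In maternal serum, a sample from the dam and not the fetus, 4 of 5 members lay below NC in VSD and miR-206-3p lay above it. Serum had no non-VSD group, so in every serum comparison a fetal defect and the dam's own DMO exposure cannot be told apart. By edgeR 0 of 5 had an adjusted p under 0.05, beside 0% of the 219 microRNAs tested, and miR-206-3p alone met the DE-microRNA threshold, which 4.57% of all tested met. Its counts were 354, 326, 314, 213, 325, 391 and 313 in NC, a narrow spread of 543 to 1098 CPM. In VSD they were 170, 196, 811, 1007, 232, 324 and 88, or 309 to 5973 CPM around a median of 1012 CPM. VSD thus spread to both sides of NC, and replicates 3 and 4 lay above every NC sample. The fitted change was 1.08 ± 0.48 (log2, SE, unadjusted p = 0.0380, adjusted p = 0.326 by edgeR), and 0.30 without VSD replicate 4. The threshold was also lost without NC replicate 1, 2, 4 or 5 or VSD replicate 3, with changes of 0.86 to 1.07, and with the replicate block (0.44), under which miR-1b met it instead (-1.02). VSD replicate 4 had the highest liver share in VSD serum, 4.41% beside a median of 0.519%, while NC reached 3.36%. Across the 14 serum libraries, with group means removed, miR-206-3p had r = 0.69 and rho = 0.61 with the liver sum (adjusted permutation p 0.0375 and 0.1085). For miR-1-3p they were 0.74 and 0.48 (adjusted permutation p 0.0314 and 0.2018).

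The other serum members had lower medians in VSD with overlapping ranges. miR-1-3p ranged from 313 to 2713 CPM in NC and from 147 to 2515 CPM in VSD, with medians of 1125 and 476 CPM and a change of -0.52 ± 0.55 (log2, SE, adjusted p = 0.708 by edgeR). miR-1b had medians of 644 and 139.9 CPM and a change of -0.81, which met the DE-microRNA threshold without NC replicate 2 (-1.11) or VSD replicate 4 (-1.28). For miR-133a-3p the medians were 6751 and 4081 CPM and the change -0.48 ± 0.39. miR-133b-3p, at medians of 129 and 87.9 CPM, changed by -0.69 ± 0.40. miR-133a-5p held 11 and 10 counts in all and was not tested. The cardiac microRNAs miR-208a, miR-208b and miR-499-5p had at most 15 counts in any serum library. With the cardiac muscle sum, which rests on such low counts, miR-1-3p had r = 0.80 and rho = 0.91, group means removed (adjusted permutation p 0.0285 and 0.00168). Without the 2 farthest libraries r was 0.734 and rho 0.867. For miR-206-3p r was 0.48 and rho 0.58 (adjusted permutation p 0.307 and 0.165).

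The change of a member in 1 tissue was set against its change in another in 14 tests, none of which had an adjusted permutation p under 0.05. These tests treated the tissues as independent, although samples of different tissues may come from the same fetus or dam. The widest contrast by p was miR-1b, which changed in mean log2 CPM by -0.95 in VSD myocardium and by 0.80 in VSD amniotic fluid, a difference of -1.75 (permutation p = 0.0472, adjusted 0.379). miR-1-3p differed likewise by -2.76 (permutation p = 0.0930, adjusted 0.397).

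Whether the 2 cistrons vary together was examined on log2 CPM with group means removed, over 13 pairs of member and tissue. miR-1-3p and miR-133a-3p, which share a precursor, moved together in myocardium with r = 0.86 and rho = 0.73 (n = 21, adjusted permutation p 0.000332 and 0.00225), and r was 0.681 without the 2 samples farthest from the median. MicroRNAs outside the members followed each partner more closely there, with rho of 0.84 for miR-1839-5p with miR-1-3p and 0.95 for miR-490-3p with miR-133a-3p. In serum (n = 14) miR-1-3p and miR-133a-3p had r = 0.96, rho = 0.93 and 0.935 (r) without the 2 farthest samples. The adjusted permutation p-values were 2.6e-05 and 4.33e-05 (1e-05 is the smallest unadjusted p that 100000 permutations can give). By contrast miR-206-3p and miR-133b-3p, the pair on chromosome 9, had r = -0.05 and rho = -0.22 in myocardium (adjusted permutation p 0.873 and 0.348) and r = 0.48 and rho = 0.51 in serum (0.162 and 0.0891).

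miR-133b-3p instead followed miR-133a-3p, from which it differs by a single base, with r = 0.95 and rho = 0.90 in myocardium and r = 0.92 and rho = 0.94 in serum. How reads that fit both were counted was not stated. miR-1-3p followed miR-1b with r = 0.98 and rho = 0.94 in myocardium, 0.96 and 0.94 in serum and 0.76 and 0.77 in amniotic fluid. The 2 arms of miR-133a had r = 0.96 and rho = 0.89 in myocardium. miR-1-3p with miR-206-3p had r = -0.05 and rho = -0.07 in myocardium (adjusted permutation p 0.873 and 0.763), 0.84 and 0.85 in amniotic fluid (2.6e-05 and 4.33e-05) and 0.78 and 0.72 in serum (0.00202 and 0.00892). The difference between tissues was not tested.

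**Figure D4:**
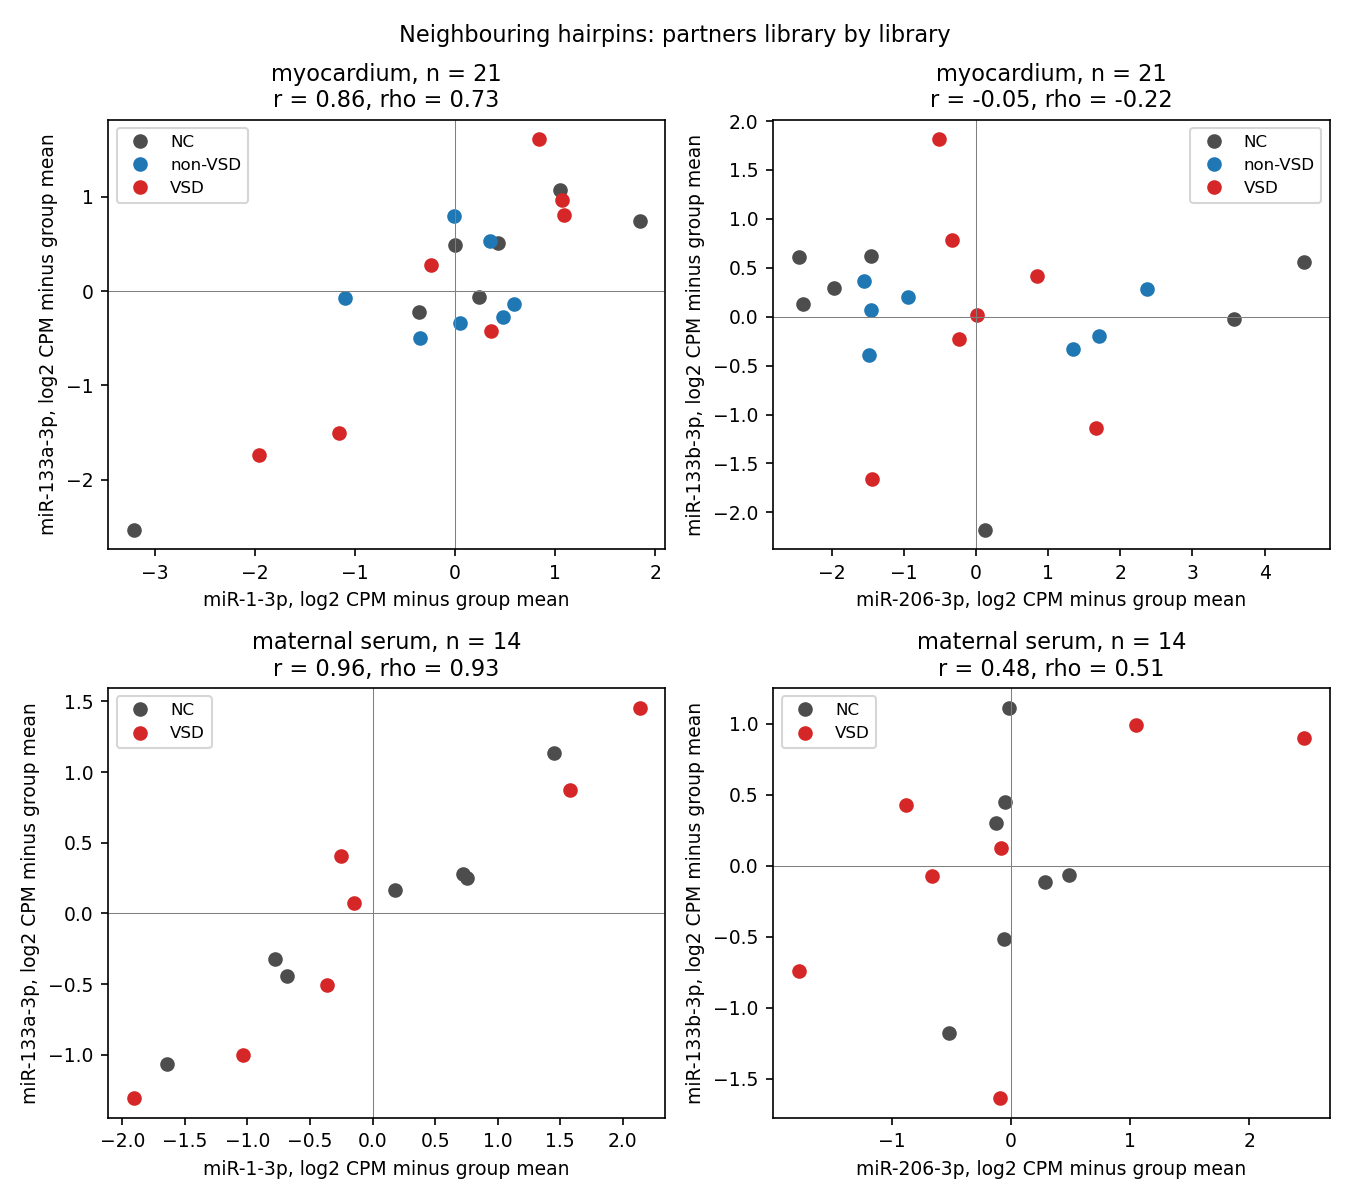
Deviation of log2 CPM from the group mean for the cistron partners miR-1-3p and miR-133a-3p, and miR-206-3p and miR-133b-3p, in myocardium (21 samples) and maternal serum (14 samples). The first pair lies along a rising line in both tissues (r = 0.86 and 0.96), and the second does not in myocardium (r = -0.05).

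Ratios between members need no library scaling and were taken within each sample. The arm ratio of miR-133a-3p to miR-133a-5p had a median of 52.8 in myocardium and stayed between 33.4 and 71.1 in all 21 samples. For miR-1 the opposite arm was at a median of 1 count and no ratio was formed. The ratio of miR-133a-3p to miR-133b-3p had a median of 33.7 in myocardium (17.5 to 47.8) and 44.4 in serum (33.1 to 82.7).

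The ratio of miR-1-3p to miR-1b separated myocardium from serum. It was below 1 in 21 of 21 myocardium samples, with a median of 0.410 (0.262 to 0.628), and above 1 in 14 of 14 serum samples, with a median of 3.01 (1.71 to 4.20). In amniotic fluid it had a median of 0.703, was above 1 in 7 of 21 samples and overlapped both ranges (0.0159 to 3.86). Where miR-1-3p had 0 counts, the amniotic fluid ratio was set by the 0.5 added to each count. Myocardium and serum came from the same library kit, but a wax-embedded tissue and a fluid differ in how the RNA was obtained, so tissue and preparation cannot be told apart. The ratio of miR-1-3p to miR-206-3p had medians of 216 in myocardium, 0.706 in serum and 0.0199 in amniotic fluid, where miR-206-3p outnumbered miR-1-3p in all 21 samples (highest ratio 0.110). Between the cistron partners miR-1-3p and miR-133a-3p the median ratio was 2.88 in myocardium (1.36 to 6.77) and 0.152 in serum (0.0928 to 0.240), ranges that do not overlap.

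Over 29 ratio tests between groups, the smallest adjusted p was 0.372. It belonged to miR-1-3p to miR-206-3p in serum, whose log2 ratios were -0.28, -0.79, 0.61, 0.65, 1.81, 1.12 and -0.73 in NC and -0.29, -0.98, -0.39, -1.25, -0.62, -1.87 and -1.06 in VSD. All 7 VSD samples lay below the NC median, and the groups overlapped through the NC samples at -0.79 and -0.73. The mean log2 ratio differed by -1.27 in VSD (exact permutation p = 0.0128, adjusted 0.372). In serum miR-206-3p to miR-133b-3p was higher by 1.21 (exact permutation p = 0.0379, adjusted 0.549), and the unadjusted p exceeded 0.05 without VSD replicate 3, 4 or 6 or NC replicate 4, 5 or 6 (0.93 to 1.21). In myocardium, miR-1-3p to miR-206-3p was under the NC median in each of the 7 VSD libraries, yet its mean differed by only -0.19 (exact permutation p = 0.902), and the ratio of summed CPM gave a log2 difference of the other sign, 1.93.

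**Figure D5:**
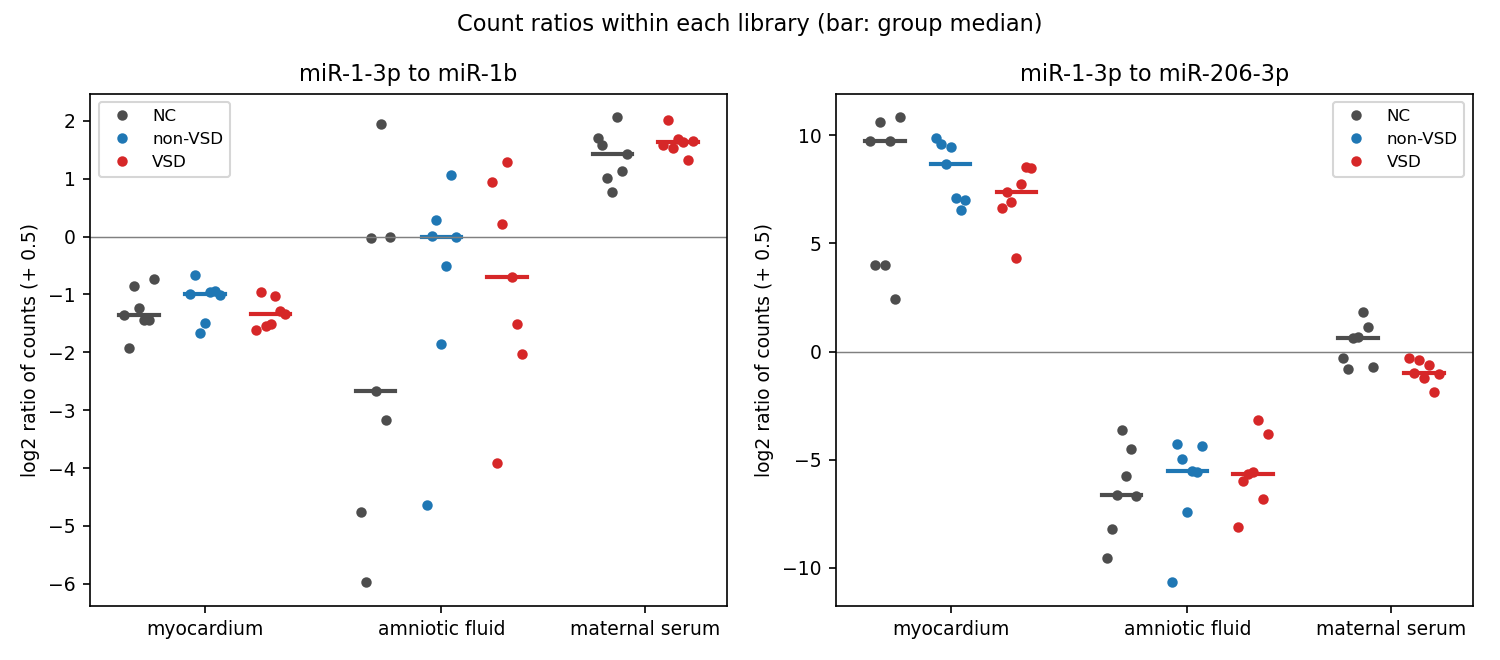
log2 ratio of counts of miR-1-3p to miR-1b and of miR-1-3p to miR-206-3p in each sample, by group and tissue, with group medians as bars. miR-1-3p to miR-1b lies below 0 in every myocardium sample and above 0 in every serum sample, and miR-1-3p to miR-206-3p spans 0.273 to 3.51 as a ratio in serum.

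The microRNAs whose levels most resembled the members were found by Spearman rho of deviations from group means, as a description, among those outside the 7 members with a mean of at least 100 CPM. In myocardium (190 candidates, 21 samples) miR-1-3p was nearest to miR-1839-5p (0.84), miR-378b (0.83) and miR-22-3p (0.83), and miR-133a-3p to miR-490-3p (0.95), miR-378b (0.94) and miR-378a-3p (0.93). miR-206-3p was nearest to a separate set, miR-493-5p (0.82), miR-493-3p (0.82) and miR-382-5p (0.77). In serum (146 candidates, 14 samples) miR-378a-3p was nearest to both miR-1-3p (0.90) and miR-133a-3p (0.84), below the rho of 0.93 between these 2 members. miR-378a-5p (0.86) was nearest to miR-206-3p. In amniotic fluid (230 candidates, 21 samples) miR-503-5p (0.59) was the nearest of these candidates to miR-206-3p and miR-493-5p (0.71) to miR-1-3p, below the rho of 0.85 between both members.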

How the data were processed

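The authors deposited raw read counts per microRNA for fetal myocardium (RNA from wax blocks), amniotic fluid supernatant and maternal serum. The aligner, annotation and genome build were not given in the sources used here, nor whether molecular identifiers were counted. The submitters' processing notes name DESeq and bcl2fastq 2.19. The tables also hold 70 normalized per-sample columns and the authors' fold changes and p-values, which were not used. The amniotic fluid tables list 493 and 507 microRNAs, 477 of them shared. Their NC columns are identical, the unshared rows hold 0 NC counts, and missing entries were set to 0.

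Counts were tested with edgeR 4.0.16 in R 4.3.3 (filterByExpr at 10 counts per library and 15 in total, trimmed mean of M values, quasi-likelihood test, Benjamini-Hochberg over all microRNAs tested). log2 CPM used a prior count of 2. VSD against non-VSD used all 3 groups in 1 fit. Ratios added 0.5 to each count and needed a median of 10 counts for both members. Exact permutation tests, all two-sided, ran over the 3432 groupings of 7 against 7 (scipy 1.17.1), correlation and tissue tests over 100000 permutations. The fits were repeated with limma 3.58.1 on log2(CPM + 1), DESeq2 1.42.0, library size scaling, no filter, a replicate block, all 3 groups in 1 fit and each sample left out. The smallest chi-square per degree of freedom between replicates was 9.26, so no library was a duplicate. Scripts were tested on simulated data. The named microRNAs were all members, the other muscle microRNAs, marker lists (those of endothelium matched 0 rows under their names) and, for likeness, the 5 nearest to miR-1-3p, miR-133a-3p and miR-206-3p, of which the first are named. Members and lists were chosen with earlier results of these data known, and the marker correlations, 42 in all with p-values adjusted over them, after the data were seen.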

Additional observations from a re-analysis of the deposited data

Results flagged for a closer look

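In NC myocardium, replicate 2 lay far below the other 6 samples for 4 members. Its log2 CPM was 13.17 for miR-1b (group median 15.93), 10.27 for miR-133a-3p (13.29), 4.52 for miR-133a-5p (7.29) and 5.71 for miR-133b-3p (8.18). In amniotic fluid, non-VSD replicate 7 was far below its group for miR-206-3p, at 6.94 against a group median of 14. Of 71 groups of samples tested in this way 5 were marked, and chance marks about 1 in 20. The members of NC replicate 2 vary together, so its 4 marks are not independent.

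The change of miR-1b in VSD against NC differed between myocardium and amniotic fluid by -1.75 in mean log2 CPM (permutation p = 0.0472, adjusted 0.379 over 14 tests).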

How the results depend on the processing

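Members at the DE-microRNA threshold in VSD against NC myocardium numbered 2, and 0 by limma, 1 with library size scaling, 0 with the replicate block, and 3 by DESeq2 and with all 3 groups in 1 fit. Their number at an adjusted p under 0.05 was 0, and 1 by DESeq2, which called 46 of all 469 microRNAs. In non-VSD against NC myocardium the first number went from 1 to 0 by limma, with library size scaling and with the replicate block. In VSD against NC amniotic fluid it went from 1 to 0 by limma, with the replicate block and with all 3 groups in 1 fit, and to 3 with no filter. In VSD against non-VSD amniotic fluid it went from 0 to 1 by DESeq2 and with no filter, and in serum from 1 to 0 by limma. With the replicate block the serum number stayed at 1, but miR-1b (-1.02) took the place of miR-206-3p (0.44). Leaving out single samples gave 1 to 3, 0 to 1, 0 to 3, 0 to 1 and 0 to 1 in these comparisons, and 0 to 2 at an adjusted p under 0.05 in VSD against NC myocardium. The 2 came without NC replicate 2, where 77 of all 474 microRNAs tested had such a p. The causes were not tested. Library size scaling moved the median of all microRNAs in myocardium from -0.05 to 0.32 (VSD against NC), -0.07 to 0.13 (non-VSD against NC) and 0.02 to 0.19 (VSD against non-VSD).

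Some changes near 0 turned their sign. In VSD against NC myocardium miR-133a-5p went to 0.12 with library size scaling. In non-VSD against NC myocardium miR-1-3p went to 0.063 by limma and 0.0052 with library size scaling, and miR-133a-3p to 0.0074 and 0.083. There miR-133a-5p went to -0.0077 by DESeq2, -0.020 with no filter and -0.028 with all 3 groups. miR-206-3p in VSD against non-VSD myocardium went to 0.14 by limma. In non-VSD against NC amniotic fluid miR-1b went to -0.47 by limma, and miR-206-3p to 0.85 by limma and 1.05 with the replicate block. The log2 ratio of miR-1-3p to miR-1b in VSD against non-VSD amniotic fluid went to 0.0016 with a pseudocount of 1. Taken from summed CPM, 9 of 29 ratios turned their sign. Among them miR-1-3p to miR-206-3p went from -0.19 to 1.93 (VSD against NC myocardium) and from 0.53 to -0.62 (VSD against non-VSD amniotic fluid), miR-206-3p to miR-133b-3p from 0.01 to -2.38 (VSD against NC myocardium), and miR-1-3p to miR-1b from 1.29 to -0.12 (non-VSD against NC amniotic fluid) and from -0.0073 to 0.90 (VSD against non-VSD amniotic fluid). With library size scaling the myocardium against amniotic fluid contrast of miR-1b in VSD was -1.29 and no longer at p under 0.05. The contrasts of miR-1-3p and miR-133b-3p between myocardium and serum turned to 0.16 and 0.25, and that of miR-1b in non-VSD to 0.12.

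With single samples left out, sign changes lay within these ranges of log2 change. In non-VSD against NC myocardium they were -0.59 to 0.040 for miR-1-3p and -0.18 to 0.12 for miR-133a-5p, and for miR-206-3p -0.80 to 0.11 in VSD against non-VSD myocardium and -0.40 to 0.65 in non-VSD against NC amniotic fluid. In VSD against non-VSD amniotic fluid they were -0.12 to 2.03 for miR-1-3p, -1.99 to 0.39 for miR-133a-3p and -0.089 to 1.05 for miR-1b.

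The log2 ratio of miR-1-3p to miR-1b ranged from -0.15 to 0.047 (VSD against NC myocardium), -0.65 to 0.51 (VSD against non-VSD amniotic fluid) and 0.14 to 0.36 (serum). For miR-1-3p to miR-206-3p the ranges were -1.01 to 0.40 (VSD against NC myocardium), -0.22 to 1.06 (non-VSD against NC amniotic fluid) and -0.23 to 0.95 (VSD against non-VSD amniotic fluid). miR-133a-3p to miR-133b-3p ranged from -0.049 to 0.093 (VSD against non-VSD myocardium) and -0.014 to 0.21 (serum), and miR-133a-3p to miR-133a-5p from -0.085 to 0.094 (VSD against non-VSD myocardium). miR-1-3p to miR-133a-3p ranged from -0.069 to 0.24 (non-VSD against NC myocardium), and miR-206-3p to miR-133b-3p from -0.50 to 0.68 (VSD against NC myocardium) and 0.93 to 1.44 (serum). All 39 alternatives for the correlations between members kept their sign and side of the threshold.

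Whether equal replicate numbers pair the samples was looked at only between groups of the same tissue. At most 5 of 7 same-numbered pairs correlated above 0.1 in any comparison, and at most 2 samples correlated best with their own number. These values cannot show whether samples shared a litter, and pairing between tissues was not examined. The replicate block groups samples by these numbers and is given only as an alternative fit. In amniotic fluid miR-133a-5p and miR-133b-3p had at most 27 and 16 counts in a library and did not pass the filter.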
